A study of Homo sapiens with 36 samples.

Results

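CNR2, the gene of cannabinoid receptor 2, and 9 genes of receptors that guide B cells through lymphoid tissue were followed in 3 human mantle cell lymphoma lines. The 10 genes, CNR2, CXCR4, CXCR5, CCR6, CCR7, S1PR1, S1PR2, S1PR4, GPR183 and P2RY8, were chosen by symbol among the 58302 gene identifiers counted in each library. Earlier results of these data were known when they were chosen, so their levels and their responses to the compound are given as descriptions. JEKO, MINO and UPN-1 are established lines that grow in suspension culture. Each line was exposed to DMSO, the solvent control, or to the compound GS716054 for 24 h or 72 h, in a series on targeting lysine demethylase 5 (KDM5). Each of the 12 groups held 3 libraries labelled as biological replicates, 36 in all, and no group carried an engineered allele. Each line stands for 1 tumour, and the compound's dose was not given in the sources used here.

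All 10 genes encode receptors that signal through heterotrimeric G proteins at the cell surface. CXCR4, CXCR5, CCR6 and CCR7 bind chemokines and direct B cells to bone marrow, follicles, mucosal sites and T cell zones. Receptors for sphingosine 1-phosphate (S1P), oxysterols and the P2RY8 ligand help set when B cells leave a lymph node and whether they stay within a germinal centre. CNR2 binds endocannabinoids, is found mainly on immune cells, is abundant on B cells and takes part in holding B cells in the marginal zone of the spleen. KDM5 enzymes remove methyl groups from lysine 4 of histone H3, a mark found at active promoters.

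The 250 bases before the RefSeq start site (GRCh38.p14) are shown for 3 members, with each CG dinucleotide in capitals, because KDM5 acts on a promoter mark. These 3 passed the test described below in MINO cells at 24 h, where the other members tested were also higher with GS716054. The sequences are written 5′ to 3′ along the strand of the gene. CNR2 lies at chr1:23913363-23913612 on the minus strand, CXCR5 at chr11:118893142-118893391 on the plus strand and S1PR1 at chr1:101236769-101237018 on the plus strand.
CNR2: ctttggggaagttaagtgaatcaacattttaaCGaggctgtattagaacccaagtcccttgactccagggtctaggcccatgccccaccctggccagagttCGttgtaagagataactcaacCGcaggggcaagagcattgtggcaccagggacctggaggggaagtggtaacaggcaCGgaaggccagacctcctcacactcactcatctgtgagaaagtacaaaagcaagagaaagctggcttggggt
CXCR5: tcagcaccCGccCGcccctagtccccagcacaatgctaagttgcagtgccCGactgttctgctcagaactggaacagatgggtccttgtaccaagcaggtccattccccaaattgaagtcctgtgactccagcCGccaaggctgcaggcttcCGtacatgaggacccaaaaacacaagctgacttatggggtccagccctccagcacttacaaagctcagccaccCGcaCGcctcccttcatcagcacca
S1PR1: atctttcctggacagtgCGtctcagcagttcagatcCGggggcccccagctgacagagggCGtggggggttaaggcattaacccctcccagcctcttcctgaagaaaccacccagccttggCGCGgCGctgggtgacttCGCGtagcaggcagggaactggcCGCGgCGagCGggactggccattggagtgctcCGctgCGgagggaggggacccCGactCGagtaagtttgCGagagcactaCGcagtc
The CNR2 window held 4 CG dinucleotides and the CXCR5 window 7, below the median of 11 over 35114 promoter windows of this length. CG reads the same on both strands. The S1PR1 window held 18, and fewer were found in 63.2% of all windows, against 29.3% for CNR2 and 41.1% for CXCR5. GC content was 52.4% for CNR2, 57.2% for CXCR5 and 64.4% for S1PR1, beside a median of 58%. A sequence was found for 9 of the 10 members, all but CCR7.

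Reads assigned to genes numbered 8784815 to 14970876 per library, and levels are given as CPM, the reads of a gene scaled to the size of its library. At this depth 3 reads corresponded to 0.196 to 0.353 CPM. Between 43.3% and 45.9% of the reads in each library fell on no annotated feature. The 5 B-lineage markers (MS4A1, CD79A, CD79B, CD22, PAX5) summed to at least 1210 CPM in every library. The 3 mantle cell lymphoma markers, CCND1, SOX11 and CD5, summed to at least 1312 CPM. Their sum was lower with GS716054 in JEKO, at 1463 to 1827 CPM beside 2630 to 2787 CPM with DMSO at 24 h and 1312 to 2014 beside 2295 to 2939 CPM at 72 h. In UPN-1 it was 2040 to 2247 CPM beside 2486 to 2604 CPM at 24 h and 1541 to 2048 beside 2142 to 2876 CPM at 72 h, so the groups were apart in both lines at both times. CCND1 made up most of the sum, with a median of 2040 CPM in JEKO beside 87.4 for SOX11 and 16 for CD5. In UPN-1 the medians were 2048, 102 and 3 CPM, so the sum says little of SOX11 and CD5. Red cell markers stayed between 0 and 0.273 CPM and fibroblast markers between 0 and 4.01 CPM. In MINO the summed B-lineage markers moved with treatment, from 2473 to 3089 CPM with DMSO to 4635 to 4929 CPM with GS716054 at 24 h, and from 2322 to 3040 CPM to 3961 to 4819 CPM at 72 h. In UPN-1 this sum was also apart, by less, at 2102 to 2146 CPM beside 2154 to 2223 CPM with GS716054 at 24 h. At 72 h it was 1772 to 2028 CPM beside 2046 to 2313 CPM there. The JEKO groups overlapped for this sum at both times. The 5 T cell markers in JEKO summed to 1.58 to 1.97 CPM with DMSO and 2.29 to 5.28 CPM with GS716054 at 24 h. At 72 h they summed to 1.63 to 2.82 CPM and 5.65 to 9.83 CPM. In UPN-1 their groups overlapped at both times. The 5 T cell markers in MINO ranged from 5.55 to 16.9 CPM with DMSO and from 10.8 to 32 CPM with GS716054, with overlap at 72 h. CD8A made up most of that sum, CD3D and CD2 were at 0 in all MINO libraries, and CD3G was at most 0.18 CPM. The 5 myeloid markers in MINO ranged from 1.85 to 4.82 CPM with DMSO and from 4.09 to 10.3 CPM with GS716054. At 72 h the 3 fibroblast markers in MINO ranged up to 1 CPM with DMSO and from 1.8 to 4.01 CPM with GS716054. The part of these markers in the receptors' values was not tested. Replicate 2 of the MINO 72 h groups stood apart from the other replicates of its group under both treatments. Its chi-square per gene against each of them was 91.3 and 97 with DMSO, and 15 between the other two. With GS716054 these values were 58.4, 65.4 and 9.46. Replicate 2 of JEKO with GS716054 at 24 h also stood apart, at 37.6 and 39.6 beside 7.27. Replicate 1 of JEKO at 72 h had 56 and 47.8 beside 24.8 with DMSO. With GS716054 it had 53.3 and 38.6 beside 21.3. Replicate 3 of UPN-1 at 72 h had 32.45 and 39 beside 21.1 with DMSO. With GS716054 it had 40.65 and 46.9 beside 16.5. No pair of replicates within a group was close enough to be 1 library deposited under 2 labels, and pairs across groups were not compared.

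With DMSO, CXCR4, the receptor for CXCL12, was the most abundant member per kilobase of exon in all 3 lines. At 24 h it stood at 170 ± 16.4 CPM per kilobase (SD, n = 3) in UPN-1, 132.5 ± 20 in JEKO and 76.9 ± 0.665 in MINO. The next members were CCR7 with 68.4 ± 4.66 CPM per kilobase in MINO, GPR183 with 44.7 ± 8.34 in JEKO and S1PR4 with 35.7 ± 0.385 in UPN-1. CNR2 was ninth of 10 in each line, with 0.425 ± 0.0796 CPM per kilobase in MINO, 0.417 ± 0.157 in JEKO and 0.0918 ± 0.0651 in UPN-1. CCR6, the receptor for CCL20, was last. Library values of neighbours in this order overlapped for GPR183 and S1PR4 and for S1PR1 and S1PR2 in JEKO, and for CXCR5 and S1PR2 in UPN-1. All other neighbours were apart. Library values of CXCR4, CXCR5, CCR7, S1PR1 and GPR183 with DMSO at 24 h did not overlap between any pair of lines. The share of all genes apart in this way was not counted, so nothing is read from it. CXCR5 had 69.8 ± 6.75 CPM in MINO, 33.1 ± 4.83 in JEKO and 7.84 ± 0.561 in UPN-1. CCR7 followed the same order, with 172 ± 11.7, 57.6 ± 6.54 and 31.4 ± 4.91 CPM. GPR183 was lowest in MINO, with 6.71 ± 2.39 CPM, beside 41.6 ± 6.98 in UPN-1 and 75.3 ± 14 in JEKO.

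With GS716054, CNR2 rose at both times in MINO, CXCR5 rose at both times, S1PR1 at 24 h and CCR7 at 72 h. No member passed the test in JEKO or UPN-1, and no member passed with a lower level in any line. Of the 9 members with enough reads, 3 passed in MINO at 24 h (CNR2, CXCR5, S1PR1), where 2.39% of all genes tested did, and 3 at 72 h (CNR2, CXCR5, CCR7), where 5.56% did. A call here means that edgeR's quasi-likelihood test, fitted to every gene with enough reads, gave an adjusted p under 0.05 (Benjamini-Hochberg). In JEKO 0 members passed, beside 0.018% of genes at 24 h and 0.3% at 72 h, with 1 and 2 members at an unadjusted p under 0.05 and 0 by DESeq2 at both times. In UPN-1 0 passed, beside 0.0262% and 0.334% of genes, with 0 and 3 members at an unadjusted p under 0.05. DESeq2 called 0 members there at 24 h and 1, CXCR5, at 72 h. Without MINO DMSO replicate 2 at 72 h, 6 members passed in MINO at 72 h (CNR2, CXCR5, CCR7, S1PR1, S1PR4, GPR183). At 24 h the 3 calls in MINO fell to 1, CNR2, without GS716054 replicate 3 and to 0 without any 1 of the other 5 libraries.

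Libraries with the same replicate number were treated as paired in 4 of the 6 comparisons. A fit with that number as a block within time raised the counts. In MINO the block gave 8 members at 24 h, all but S1PR2, beside 15.8% of genes. At 72 h it gave 6 members, beside 20.2% of genes (CNR2, CXCR5, CCR7, S1PR1, S1PR4, GPR183). In UPN-1 at 72 h the block gave 3 members, beside 7.47% of genes (CXCR5, CCR7, P2RY8), and in JEKO at 72 h it gave 0, beside 3.34%.

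In MINO at 24 h every GS716054 library lay above every DMSO library for 9 of 9 members, and 19.9% of all genes tested did so. At 72 h this held for 4 members (CNR2, CXCR5, CCR7, S1PR1), beside 12.4% of genes. In UPN-1 it held for 1 member at 24 h (CXCR5), beside 7.82%, and for 4 at 72 h (CNR2, CXCR5, S1PR2, P2RY8), beside 5.15%. In JEKO it held for 0 members at 24 h, beside 7.03%, and for 2 at 72 h (CNR2, S1PR1), beside 6.51%. The members were chosen with these values known, so nothing is read from these shares.

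**Figure D1:**
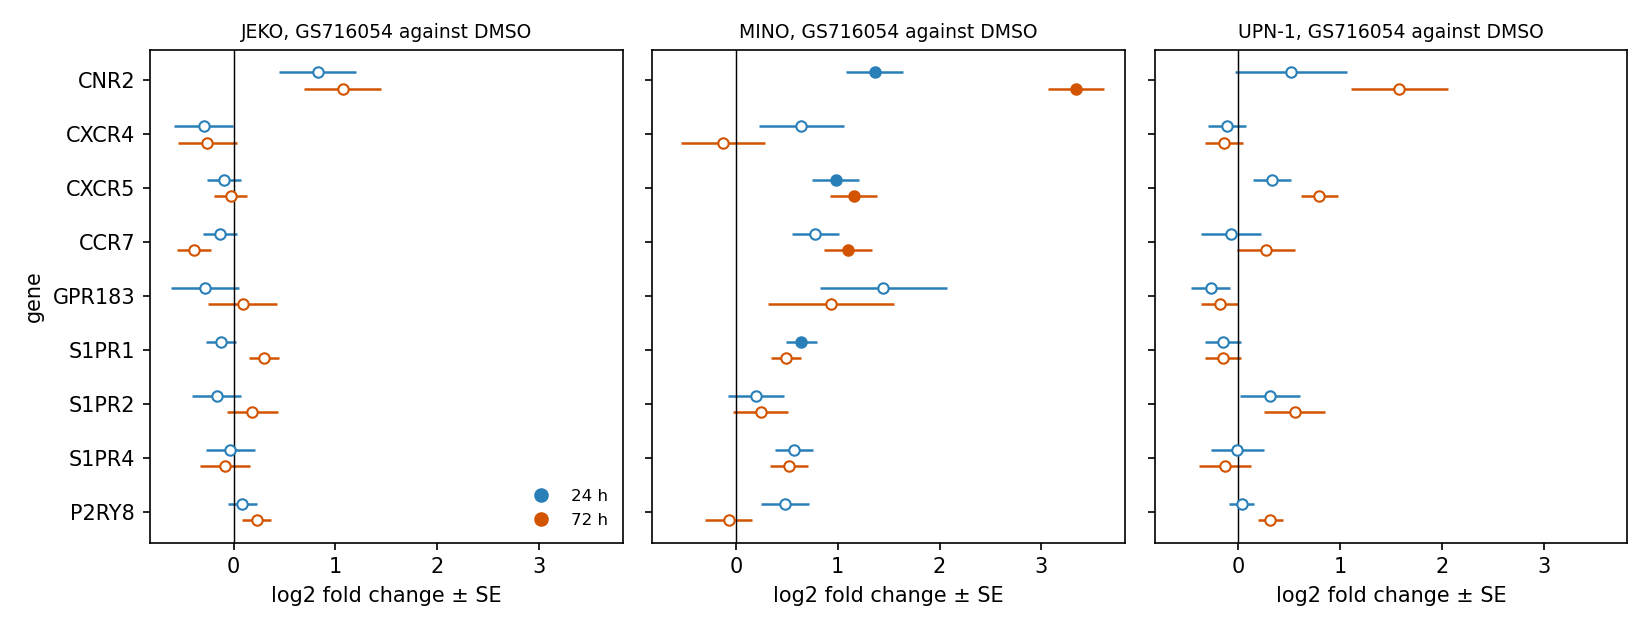
Log2 fold change of GS716054 against DMSO (horizontal axis, ± SE) for the 9 members tested, in 3 panels for JEKO, MINO and UPN-1, with 24 h in blue and 72 h in orange. Filled points passed an adjusted p under 0.05, and all of them lie in the MINO panel, with CNR2 at 72 h farthest to the right at 3.34.

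CNR2, a Gi-coupled receptor for 2-arachidonoylglycerol and anandamide, lies on chromosome 1 (GRCh38, 23870515 to 23913362, minus strand). In MINO at 72 h the DMSO libraries held 1.92, 1.93 and 2.55 CPM and the GS716054 libraries 20.9, 26.2 and 19.1 CPM. All 3 treated libraries were thus far above the controls, and the ratio of the means was 10.3 (log2 fold change 3.34, SE 0.27). At 24 h the same line had 1.77, 2.57 and 2.38 CPM with DMSO and 5.88, 7.88 and 4.06 CPM with GS716054, a ratio of 2.65 (log2 fold change 1.36, SE 0.28). The treated libraries at 24 h lay above their controls and below all treated libraries of 72 h. In JEKO at 72 h CNR2 had 1.59, 3.16 and 1.63 CPM with DMSO and 4.39, 4.34 and 4.61 CPM with GS716054. The groups did not overlap, and the log2 fold change of 1.07 (SE 0.38) did not pass the test. JEKO at 24 h had 2.95, 1.31 and 2.33 CPM against 4.17, 5.18 and 2.36 CPM, which overlapped (log2 fold change 0.83, SE 0.38). UPN-1 held the fewest CNR2 reads, between 2 and 9 per DMSO library. At 72 h its libraries had 0.475, 0.545 and 0.574 CPM with DMSO and 1.1, 2.28 and 1.4 CPM with GS716054, with no overlap (log2 fold change 1.58, SE 0.48). At 24 h they had 0.869, 0.214 and 0.366 CPM against 0.724, 0.617 and 0.751 CPM, which overlapped (log2 fold change 0.52, SE 0.55). CNR2 was higher on average with the compound in all 6 comparisons and passed the test in the 2 of MINO. In MINO at 72 h CNR2 remained past the threshold in each of the 14 alternative fits, and its adjusted p without 1 library lay between 0.000229 and 0.00107.

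**Figure D2:**
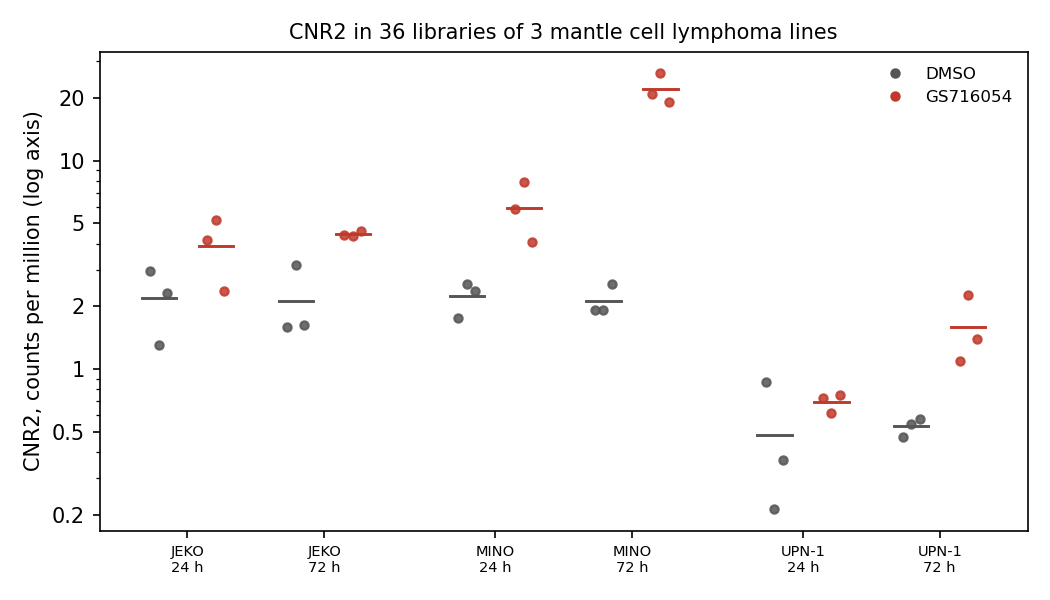
CNR2 level in CPM (vertical log axis) in each of the 36 libraries (points) with the group mean (line), for DMSO in grey and GS716054 in red, by line and time. The 3 treated MINO libraries at 72 h, at 19.1 to 26.2 CPM, are the highest.

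CXCR4 was the member with the most reads and passed the test in no line. In MINO at 24 h it had 222, 222 and 225 CPM with DMSO and 317, 375 and 375 CPM with GS716054, with no overlap (log2 fold change 0.64, SE 0.41). At 72 h it had 226, 799 and 219 CPM with DMSO and 278, 569 and 298 CPM with GS716054. Replicate 2 was high under both treatments, and the groups overlapped. The log2 fold change of CXCR4 there was -0.13 (SE 0.41), against 0.72 (SE 0.24) without DMSO replicate 2 and 0.07 (SE 0.16) with the replicate block, none past the threshold. With the block the 24 h value of CXCR4 in MINO, 0.64 (SE 0.16), passed it. In JEKO the CXCR4 fold change was -0.29 (SE 0.29) at 24 h and -0.26 (SE 0.29) at 72 h, and the UPN-1 values were -0.12 (SE 0.19) and -0.14 (SE 0.19), all with overlapping libraries.

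CXCR5 binds CXCL13 and brings B cells into follicles. In MINO it had 62.4, 71.5 and 75.6 CPM with DMSO and 126, 174 and 122 CPM with GS716054 at 24 h (log2 fold change 0.98, SE 0.23). At 72 h it had 76.6, 135 and 85.9 CPM against 177, 293 and 199 CPM (log2 fold change 1.16, SE 0.23). All treated MINO libraries were above their controls at both times. The 24 h call of CXCR5 was lost without any 1 of its 6 libraries. Its 72 h call was lost without MINO DMSO replicate 1 or without replicate 3. The UPN-1 libraries at 72 h had 8.48, 10.1 and 7.96 CPM with DMSO and 17, 17.1 and 11.4 CPM with GS716054, with no overlap (log2 fold change 0.80, SE 0.18). This UPN-1 value of CXCR5 missed the threshold and passed it with the replicate block (0.78, SE 0.14). In JEKO the fold changes of -0.09 (SE 0.16) and -0.03 (SE 0.16) came with overlapping libraries.

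Of the exonic length of CXCR5 (chromosome 11, 118883892 to 118897787, plus strand, 4293 bases), 91.1% is also covered on the opposite strand by BCL9L, a coactivator gene of Wnt signalling. The counting strand was not given in the sources used here, so reads of CXCR5 and BCL9L cannot be told apart. BCL9L moved with CXCR5, with log2 fold changes of 0.97 (SE 0.21) at 24 h and 1.15 (SE 0.21) at 72 h in MINO. Its mean in MINO was 78.3 ± 1.85 CPM with DMSO and 156 ± 20.7 CPM with GS716054 at 24 h, and 103 ± 20.4 and 230.3 ± 79.7 CPM at 72 h (SD, n = 3). The order of the lines was also shared, MINO highest and UPN-1 lowest, so the CXCR5 values may hold reads of either gene.

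**Figure D3:**
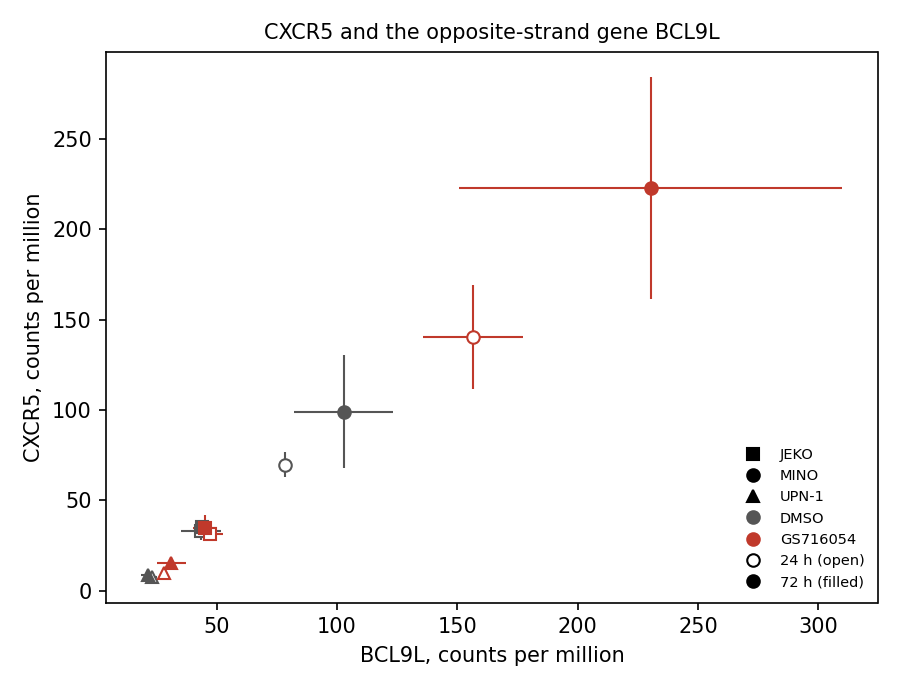
Group means of CXCR5 (vertical axis) and of BCL9L (horizontal axis) in CPM, with SD bars over 3 libraries, for the 12 groups. Groups high in one gene are high in the other, up to 223 CPM of CXCR5 and 230.3 CPM of BCL9L in treated MINO cells at 72 h.

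CCR6 had between 0 and 4 reads in every library and was too low to test. It was at 0 reads in 23 of 36 libraries and had 3 or more reads in 3 libraries. Another annotated gene covers 85.2% of its exonic length on the same strand, and reads that fit both genes may not have been counted for either. CCR7 binds CCL19 and CCL21 and draws B cells towards the T cell zone. In MINO at 72 h it had 150, 252 and 157 CPM with DMSO and 307, 536 and 367 CPM with GS716054. The treated libraries were all above the controls (log2 fold change 1.10, SE 0.23). This CCR7 call was lost without MINO DMSO replicate 1 or without replicate 3. At 24 h CCR7 had 159, 174 and 182 CPM against 251, 374 and 278 CPM, with no overlap. The fold change of 0.78 (SE 0.23) missed the threshold and passed it with the replicate block (0.76, SE 0.12). In JEKO the change of CCR7 had the other sign at 72 h, -0.39 (SE 0.17), with libraries at 86.1, 97.7 and 66.8 CPM against 60.3, 68.8 and 61.4 CPM that overlapped. In UPN-1 at 72 h DMSO replicate 3 was low, at 32 CPM beside 54 and 76.2 CPM, as was treated replicate 3, at 37.1 CPM beside 73 and 83.4 CPM. CCR7 there had a log2 fold change of 0.27 (SE 0.28), and 0.28 (SE 0.08) with the replicate block, which passed.

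Among the S1P receptors, S1PR1, which draws B cells out of lymph nodes, rose in MINO at 24 h. The DMSO libraries held 45.2, 44.9 and 45.3 CPM and the treated libraries 68.2, 85.7 and 61.3 CPM, all above them (log2 fold change 0.64, SE 0.15). This S1PR1 call was lost with DESeq2 size factors in edgeR and without any 1 of its 6 libraries. At 72 h S1PR1 had 48.5, 68.1 and 50.4 CPM against 77.7, 83.6 and 74.9 CPM, again apart. The 72 h fold change of S1PR1, 0.49 (SE 0.15), missed the threshold, and it passed with the replicate block (0.50, SE 0.12) or without DMSO replicate 2 (0.62, SE 0.14). In JEKO at 72 h S1PR1 had 16.1, 22.2 and 19 CPM against 22.5, 23.6 and 24.2 CPM, a narrow gap (log2 fold change 0.30, SE 0.15). In UPN-1 S1PR1 was -0.16 (SE 0.18) and -0.15 (SE 0.18), with overlap.

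S1PR4, a lymphocyte receptor for S1P, had 81.3, 61.9 and 79.4 CPM with DMSO and 114, 114 and 110 CPM with GS716054 in MINO at 24 h. The groups were apart, and the log2 fold change of 0.57 (SE 0.18) missed the threshold and passed it with the replicate block (0.58, SE 0.13). At 72 h S1PR4 had 59.2, 90.8 and 69.9 CPM against 79.8, 111 and 128 CPM, which overlapped (0.52, SE 0.18). With the block this was 0.52 (SE 0.13) and passed. The fold changes of S1PR4 in the other lines lay between -0.13 and -0.01. S1PR2, which confines B cells to germinal centres through G12 and G13, was the S1P receptor with the smallest fold changes in MINO, 0.20 (SE 0.27) and 0.24 (SE 0.27). S1PR2 in UPN-1 at 72 h had 5.63, 6.54 and 4.92 CPM against 8.55, 8.09 and 8.1 CPM, with no overlap (log2 fold change 0.55, SE 0.30). At 24 h UPN-1 replicate 3 was high for S1PR2 under both treatments, at 10.6 CPM in each. In JEKO S1PR2 was -0.17 (SE 0.24) and 0.19 (SE 0.25), with overlap.

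GPR183 (EBI2) senses oxysterols and positions B cells at the outer follicle. In MINO at 24 h it had 9.06, 4.28 and 6.78 CPM with DMSO and 17.1, 19.3 and 19.3 CPM with GS716054, all higher. Its log2 fold change of 1.45 (SE 0.62) missed the threshold, and passed with the replicate block (1.49, SE 0.45). At 72 h DMSO replicates 1 and 3 of GPR183 held 1.62 and 3.07 CPM, replicate 2 held 19.3 CPM, and the treated libraries held 15, 14.8 and 14.7 CPM. One control library was thus above all treated ones. The 72 h log2 fold change of GPR183 was 0.93 (SE 0.62), 2.59 (SE 0.32) without that control library and 1.43 (SE 0.47) with the replicate block, and both of the latter passed. In JEKO and UPN-1 the fold changes of GPR183 lay between -0.28 and 0.09, with overlapping libraries.

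P2RY8, a receptor coupled to G13 that holds B cells in germinal centres, had 122, 92.6 and 148 CPM with DMSO and 178, 148 and 189 CPM with GS716054 in MINO at 24 h. The lowest treated library of P2RY8 lay just above the highest control (log2 fold change 0.48, SE 0.23), and the value passed with the replicate block (0.50, SE 0.12). At 72 h it had 113, 204 and 125 CPM against 107, 162 and 154 CPM, which overlapped (-0.07, SE 0.23). P2RY8 in UPN-1 at 72 h had 71.5, 67.6 and 66.7 CPM against 80.5, 87.8 and 84.5 CPM, with no overlap. Its log2 fold change of 0.31 (SE 0.12) passed with the replicate block (0.31, SE 0.07). In JEKO P2RY8 was 0.09 (SE 0.14) and 0.23 (SE 0.14). The gene lies in the pseudoautosomal region shared by the X and Y chromosomes, so its reads can match both copies.

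**Figure D4:**
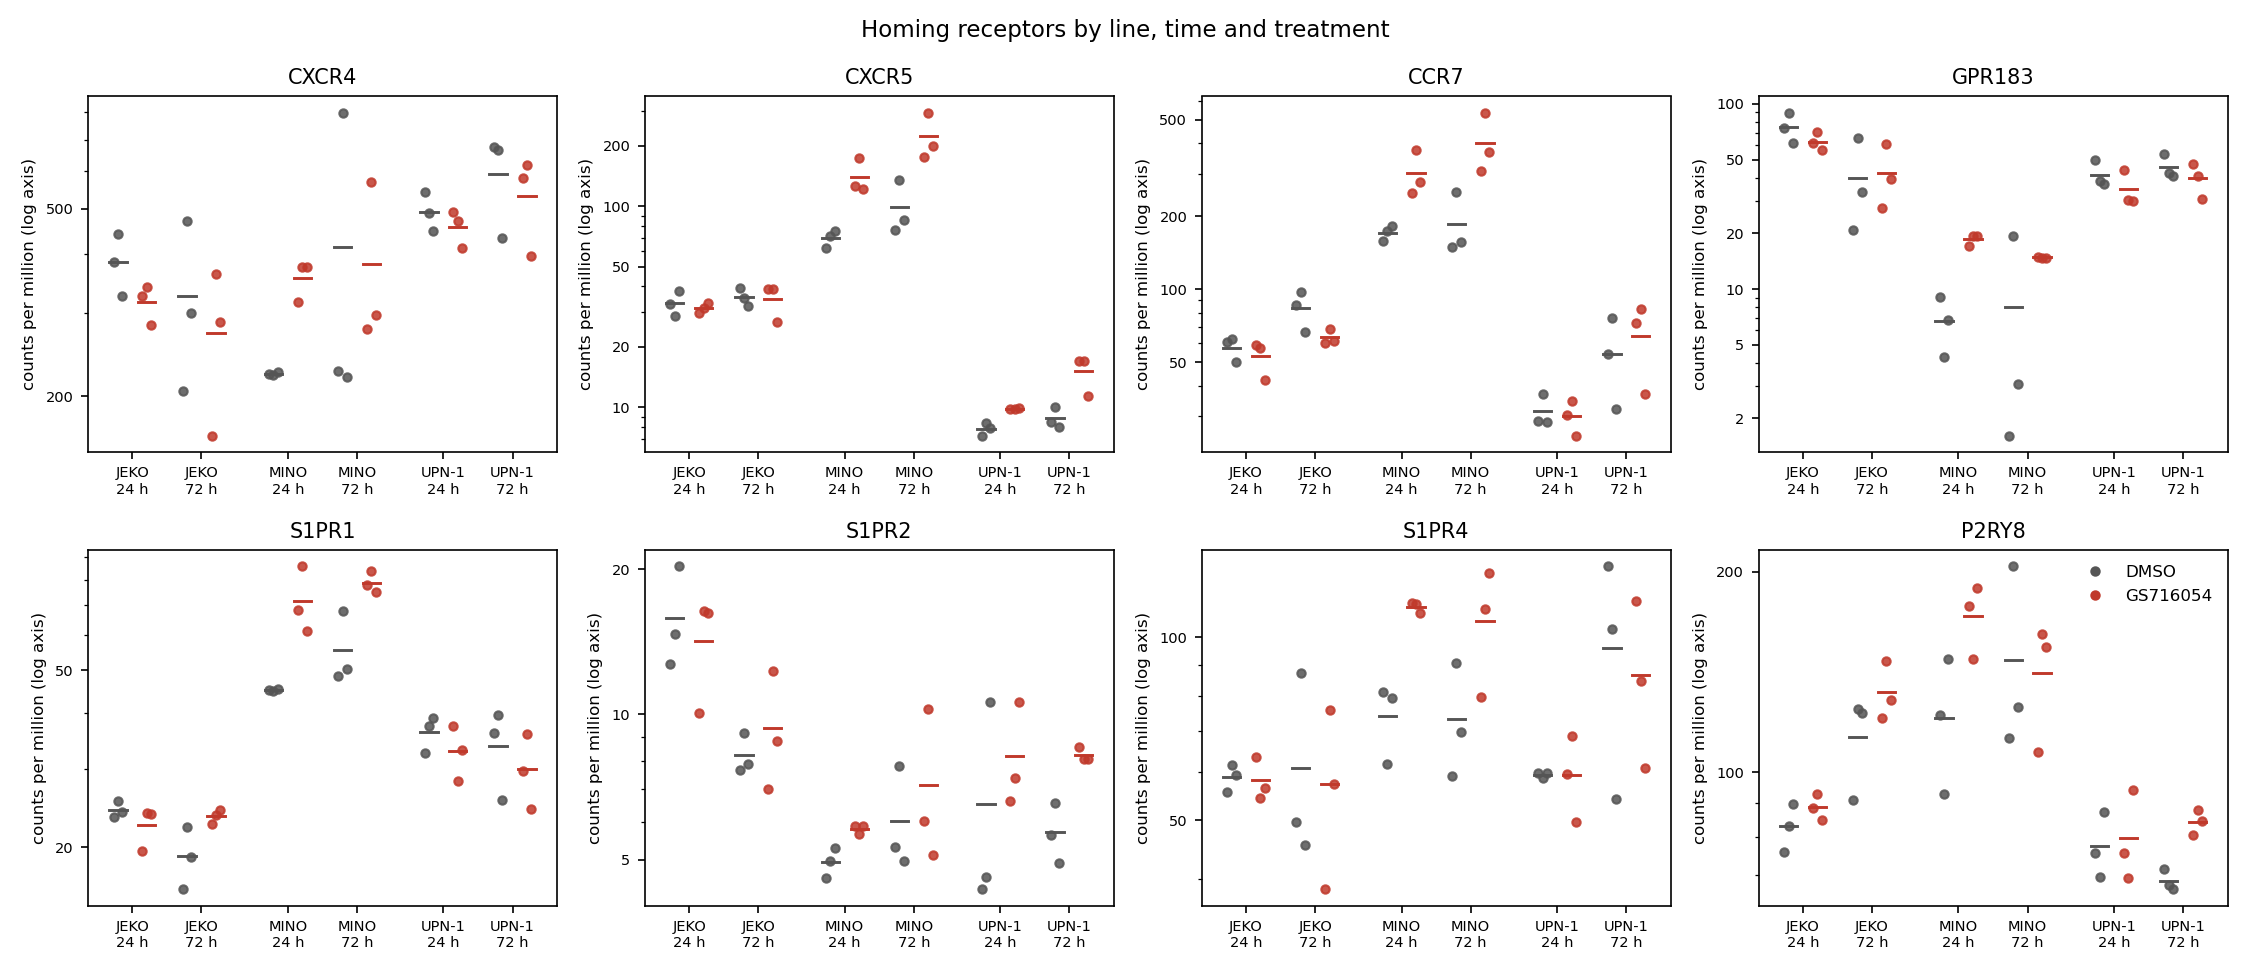
Levels in CPM (vertical log axes, 1 panel per gene) of the 8 other members tested, in each of 36 libraries (points) with group means (lines), DMSO in grey and GS716054 in red. In MINO the treated libraries of CXCR5, CCR7 and S1PR1 lie above their controls at both times. In MINO at 72 h 1 control library is high for CXCR4 (799 CPM) and GPR183 (19.3 CPM).

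Whether the response differed among the 3 lines was tested over all 36 libraries. At 72 h 2 members passed, CNR2 (adjusted p = 0.0197, edgeR) and CXCR5 (adjusted p = 0.0494, edgeR), beside 1.01% of 17980 genes. At 24 h 0 members passed, beside 0.106% of genes, with 4 at an unadjusted p under 0.05 (CXCR5, CCR7, S1PR1, GPR183) and 0 by DESeq2. CNR2 and CXCR5 had their highest 72 h fold changes in MINO. The CNR2 call was lost without MINO DMSO replicate 1 or without MINO GS716054 replicate 2, and the CXCR5 call in 13 of 18 fits without 1 library. With the replicate block 5 members passed at 72 h (CNR2, CXCR5, CCR7, S1PR1, S1PR4), beside 9.78% of genes.

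Change over culture time was tested in the DMSO libraries, 72 h against 24 h, a contrast that the choice of members did not name. In JEKO CCR7 and P2RY8 rose and S1PR2 fell, so 3 members passed in a line where 31.7% of genes did. CCR7 rose from 60.5, 62.2 and 50.1 CPM to 86.1, 97.7 and 66.8 CPM (log2 fold change 0.54, SE 0.17, adjusted p = 0.0264, edgeR). P2RY8 rose from 76, 83.1 and 89.6 CPM to 90.8, 125 and 123 CPM (0.44, SE 0.14, adjusted p = 0.0305, edgeR). S1PR2 fell from 12.7, 14.7 and 20.3 CPM to 7.67, 9.17 and 7.92 CPM (-0.94, SE 0.25, adjusted p = 0.0127, edgeR). The groups did not overlap for any of the 3. GPR183 went from 74.4, 89.8 and 61.7 CPM to 21, 65.3 and 33.5 CPM and missed the threshold (-0.92, SE 0.34, adjusted p = 0.0502, edgeR). GPR183 passed there by DESeq2 (adjusted p = 0.0274), with no filter on low counts, with the replicate block over both times and without DMSO 72 h replicate 2. DESeq2 called 4 members in JEKO, these 3 and GPR183. The S1PR2 call was lost without JEKO DMSO 24 h replicate 3. The CCR7 call was lost without replicates 1 or 3 of 24 h or 1 or 2 of 72 h, and the P2RY8 call without any of the 24 h replicates or without replicates 2 or 3 of 72 h. In MINO 0 members passed, beside 0.0932% of genes, with 1, CXCR5, at an unadjusted p under 0.05 and 0 by DESeq2. In UPN-1 0 passed, beside 1.47% of genes, with 2 at an unadjusted p under 0.05 (CCR7, S1PR4) and 0 by DESeq2. Without UPN-1 DMSO 72 h replicate 3, CCR7 and S1PR4 passed there. CNR2 missed the threshold in each line, with log2 fold changes of -0.07 (SE 0.29) in MINO, -0.04 (SE 0.39) in JEKO and 0.15 (SE 0.56) in UPN-1.

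Genes around these receptors were read from 7 lists of 120 genes. In MINO 3 of 86 list genes tested passed at 24 h, beside 2.39% of all genes, and 8 at 72 h, beside 5.56%. Among 19 other chemokine receptors, 6 were tested in MINO and 2 rose at 72 h. CXCR3, the receptor for CXCL9, CXCL10 and CXCL11, had 1.74 ± 1.06 CPM with DMSO and 15 ± 2.19 CPM with GS716054 (SD, n = 3; log2 fold change 3.03, SE 0.41, adjusted p = 0.00174, edgeR). CCR10, a receptor of antibody-secreting cells, went from 9.03 ± 1.42 to 22.7 ± 1.33 CPM (1.31, SE 0.28, adjusted p = 0.0164, edgeR). The median log2 fold change of these 6 genes was 0.71 at 72 h and 0.63 at 24 h, beside -0.03 and 0.01 for all genes tested in MINO. In UPN-1 the tested genes of this list had medians of -0.43 at 72 h and -0.10 at 24 h, and in JEKO of 0.07 and 0.34. The other 6 lists had medians in MINO between -0.21 (receptor desensitisation) and 0.31 (homing ligands and their enzymes) at 72 h and between 0.02 and 0.52 at 24 h. Of the 13 other lipid and nucleotide receptors tested in MINO, 2 rose at 24 h. CNR1, the gene of cannabinoid receptor 1, went from 20.3 ± 2.78 to 40.9 ± 6.7 CPM (0.98, SE 0.23, adjusted p = 0.0457, edgeR). CYSLTR1, a leukotriene receptor, went from 36.7 ± 0.877 to 53.1 ± 4.26 CPM (0.51, SE 0.12). At 72 h 1 of these 13 fell, PTGER2, a prostaglandin E2 receptor, from 5.65 ± 0.493 to 2.28 ± 1.08 CPM (-1.31, SE 0.35). The calls of CNR1 and CYSLTR1 were lost without any 1 of their 6 libraries, and that of PTGER2 without 5 of its 6.

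Of 9 genes for homing ligands and their enzymes tested in MINO, 2 rose at 72 h. HSD3B7, which degrades the oxysterol ligand of GPR183, went from 1.25 ± 0.346 to 5.6 ± 3.53 CPM (2.17, SE 0.47), and PLPP3, a phosphatase that can remove phosphate from S1P, from 7.82 ± 0.106 to 14.2 ± 3.35 CPM (0.84, SE 0.19). Among 20 adhesion and egress partners, ITGB7, the beta chain of a gut-homing integrin, rose at 24 h from 41.1 ± 4.98 to 73.8 ± 8.2 CPM (0.81, SE 0.14) and at 72 h from 36.6 ± 1.64 to 75.6 ± 11.4 CPM (1.04, SE 0.14). CD9, a tetraspanin, rose at 72 h from 38.2 ± 12.6 to 132.6 ± 31 CPM (1.79, SE 0.24, adjusted p = 0.00168, edgeR). Among the 19 G proteins and effectors tested, GNG2, a G protein gamma subunit, rose at 72 h (0.70, SE 0.19). Of 7 endocannabinoid enzymes tested in MINO 0 passed at either time by edgeR or DESeq2, also with 0 at an unadjusted p under 0.05, and with the replicate block 1 passed at 24 h and 0 at 72 h. Of 12 genes of receptor desensitisation 0 passed by edgeR, with 3 at 24 h and 7 at 72 h at an unadjusted p under 0.05 and 1 and 3 by DESeq2. With the replicate block 4 of these 12 passed at 24 h and 8 at 72 h. In UPN-1 at 72 h GRK2, a kinase that phosphorylates activated receptors, fell from 340.7 ± 43.8 to 221 ± 19.8 CPM (-0.61, SE 0.12, adjusted p = 0.0404, edgeR), the single list gene called in that line. GRK2 missed the threshold in the other lines at 72 h, with -0.68 (SE 0.16) in JEKO and -0.46 (SE 0.14) in MINO, and passed in both by DESeq2 (adjusted p = 0.00437 and 0.0219) and with the replicate block. At 24 h its values were -0.36 (SE 0.16) in JEKO, -0.41 (SE 0.14) in MINO and -0.33 (SE 0.12) in UPN-1, none past the threshold. With the block those of MINO and UPN-1 passed, the latter where deviations of same-numbered libraries correlated at only 0.0688 to 0.169. In JEKO 0 of 87 list genes passed at either time, beside 0.018% and 0.3% of all genes, with 7 and 10 at an unadjusted p under 0.05 and 0 and 1 by DESeq2. In UPN-1 at 24 h 0 of 81 passed, with 4 at an unadjusted p under 0.05 and 0 by DESeq2. The replicate block raised these counts to 29 of 86 list genes in MINO at each time, beside 15.8% of all genes at 24 h and 20.2% at 72 h. It gave 19 of 81 in UPN-1 at 72 h, beside 7.47%, and 8 of 87 in JEKO at 72 h, beside 3.34%. The 24 h call of ITGB7 was lost without 4 of its 6 libraries. The 72 h calls of CXCR3, CCR10, ITGB7 and CD9 in MINO held when each of the 6 libraries was left out. Those of HSD3B7, PLPP3 and GNG2 were each lost without DMSO replicate 1 or without replicate 3, among others, and that of GRK2 without 4 of its 6 libraries.

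The genes whose group means followed CNR2 most closely over the 12 groups, among 13764 genes that averaged 1 or more in log2 CPM, were CD82 (Pearson r = 0.949), CD27 (r = 0.946) and SPOCK2 (r = 0.941). CD82 went from 11.5 to 52.7 CPM, CD27 from 49.6 to 146 CPM and SPOCK2 from 92.7 to 324 CPM between DMSO and GS716054 in MINO at 72 h. All 3 were highest in that treated group and lowest in UPN-1 at 24 h with DMSO, as CNR2 was. For CXCR4 the closest were ZBTB41 (r = 0.952), IFT46 (r = 0.926) and HOXB7 (r = 0.925). Group means of ZBTB41 ranged from 13.4 to 20.1 CPM. IFT46 had at least 19.1 CPM in the UPN-1 groups and at most 13.6 CPM in the others. For HOXB7 these values were 5.83 and 1.67 CPM. These correlations are descriptions over 12 groups that share lines and libraries.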

How the data were processed

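Whole-number read counts per gene were deposited by the authors, 1 file for each of 36 RNA-seq libraries. HISAT2 2.2.1, HTSeq 0.13.5 and GRCh38 are listed per the submitters' processing notes, while the sources used here gave no strand setting or annotation release. Rows that name no gene were left out of library sizes and tests. Symbols and positions came from GENCODE 44 (57532 of 58302 identifiers matched) and promoters from RefSeq (GRCh38.p14).

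The members and lists were chosen with earlier results of these data known. Each line was fitted over its 12 libraries and 4 groups in edgeR 4.0.16 (R 4.3.3) with trimmed mean scaling, filterByExpr (minimum count 10), the quasi-likelihood test and Benjamini-Hochberg adjustment over all genes tested, with a call at an adjusted p under 0.05. The SE was taken as the size of the log2 fold change over the root of its F statistic. P-values measure the spread between libraries labelled as biological replicates of 1 line. Line differences used 1 fit of 36 libraries. The fit was tested on simulated data. Alternatives were DESeq2 1.42.0, its size factors, other filters, other samples in the fit, leaving out each library, and replicate blocks. The block within time was chosen after seeing the data. Deviations of same-numbered DMSO and GS716054 libraries correlated at 0.102 to 0.562 in MINO at both times and in JEKO and UPN-1 at 72 h. These comparisons were treated as paired in the fit with that block alone, as the main fit used no block. At 24 h the range was 0.0463 to 0.186 in JEKO and 0.0688 to 0.169 in UPN-1, which were not treated as paired. These ranges overlap that of MINO at 24 h, 0.102 to 0.207, so the cut was a choice. In JEKO and UPN-1 at 24 h each same-numbered value exceeded the highest with another number. In MINO at 72 h that of replicate 3 did not, at 0.221 beside 0.254. Named genes were all members, up to 4 called genes per list and comparison by adjusted p, and the 3 genes closest to CNR2 and to CXCR4 in group means of log2 CPM (prior count 2). A further B-lineage marker is not reported here and was left out of the marker sums.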

Additional observations from a re-analysis of the deposited data

Results flagged for a closer look

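The response of CNR2 at 72 h differed among the 3 lines (F test on the interaction, adjusted p = 0.0197, edgeR), with log2 fold changes of 3.34 in MINO, 1.58 in UPN-1 and 1.07 in JEKO. That of CXCR5 also differed (adjusted p = 0.0494, edgeR), with 1.16 in MINO, 0.80 in UPN-1 and -0.03 in JEKO. Both genes belong to a set chosen with these responses known, so the test adds no independent support. The CXCR5 call was lost with DESeq2 size factors in the same edgeR fit. Without 1 library at a time, CXCR5 passed in 5 of 18 fits and CNR2 in 16 of 18, all but those without MINO DMSO replicate 1 or MINO GS716054 replicate 2.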

How the results depend on the processing

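All 593 alternative values of the members' responses to GS716054 differed from the main value by less than the larger SD of the groups compared. Fits with other filters or with all 36 libraries are not among these 593. Leaving out 1 of 3 libraries can hardly move a group mean by that SD, so little is read from this for such fits. In MINO at 72 h that SD takes in the DMSO replicate that stood apart, and without it the uncalled CXCR4 value went from -0.13 to 0.72. The counts of members called moved more. In MINO the 3 calls at 24 h became 2 with DESeq2 size factors, 7 with no filter on low counts and 8 with the replicate block within time. They became 8 with only the 6 libraries compared, and 0 to 1 without any 1 library. The 3 at 72 h became 6 with that block, 1 with only the 6 libraries compared and 1 to 6 without any 1 library. In UPN-1 at 72 h the 0 became 1 with no filter, with DESeq2 and with the replicate block over both times, 3 with the block within time and 0 to 1 without any 1 library. For time in DMSO, 251 of 269 alternative values kept their side of the threshold, 8 passed it and 10 lost it. Fits with other filters or with all 36 libraries are not among these 269. The 3 calls in JEKO became 4 with DESeq2 and with the replicate block over both times, 1 with all 36 libraries in 1 fit and 0 to 3 without any 1 library. The 0 calls in MINO became 1 with no filter. The 0 in UPN-1 became 2 with no filter, 2 with the replicate block over both times and 0 to 2 without any 1 library. For the difference among lines, the 0 calls at 24 h became 3 with no filter, 3 with the replicate block over both times and 5 with the block within time. That block assumes pairs, which were weak in JEKO and UPN-1 at 24 h. The 2 at 72 h became 1 with DESeq2 size factors, 4 with no filter, 5 with the block within time and 0 to 4 without any 1 library. In JEKO with GS716054 the count was 0 in every alternative run. Over all genes the 359 calls in MINO at 24 h ranged from 27 without 1 library to 2557 with only the 6 libraries compared, and the 835 at 72 h from 101 with only the 6 libraries compared to 3029 with the block within time. The cause of these shifts was not tested. In JEKO and UPN-1 at 24 h, where the pairing was weaker than at 72 h, the replicate block within time gave 0 members called. Low counts limit CNR2 in UPN-1 (2 to 29 reads) and CCR6 in every line.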
